A study of Homo sapiens with 16 samples.

Results

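Small nucleolar RNA (snoRNA) host genes were examined in SW620, an established human line of colorectal cancer. They were taken as every gene named SNHG followed by a number, together with GAS5, ZFAS1, EPB41L4A-AS1 and DANCR, whatever its biotype. The rule found 29 of the 58735 entries of the deposited gene table, with SNHG28 listed under 2 identifiers, and 23 of the 29 passed a filter on low counts that kept 17309 genes. The study compared cells whose hairpin RNA targets ATF4 (shATF4), a transcription factor of the stress response, with cells that carried a scrambled hairpin (shSc). In each line the cells were untreated (3 libraries) or held in 5 µM 5-fluorouracil (5-FU) for 24 h (3 libraries) or 48 h (2 libraries). 5-FU is a pyrimidine analogue used in chemotherapy, which blocks thymidylate synthase and is also built into RNA. The series asks what part ATF4 plays in chemotherapy resistance.

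Each line is a single hairpin line, so in every comparison of shATF4 with shSc the loss of ATF4, an off-target action of the hairpin and any other difference between the lines cannot be told apart. The untreated libraries carry no time and serve as the baseline at both 24 h and 48 h, so the drug and the time in culture cannot be told apart either. The labels do not tell whether replicates were grown separately. The p-values therefore rest on the spread between libraries, which may be technical. In bulk RNA, fewer cells of a type and less RNA per cell cannot be told apart.

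A snoRNA host gene carries snoRNAs in its introns. The spliced-out introns are trimmed to snoRNAs, which guide chemical modification of ribosomal RNA: box C/D snoRNAs guide methylation of the ribose, box H/ACA snoRNAs guide the change of uridine to pseudouridine, and the related scaRNAs guide modification of spliceosomal RNAs in Cajal bodies. The joined exons leave the nucleus as a long non-coding RNA. Many of these exonic RNAs begin, like the messenger RNAs of ribosomal proteins, with a terminal oligopyrimidine (TOP) tract, a C followed by a run of C or T. Several are known to be read by ribosomes over short open frames and then destroyed by nonsense-mediated decay, so that they build up when translation or decay is blocked. GAS5, growth arrest-specific 5, was named for this behaviour in arrested cells.

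The libraries held 14571611 to 17824188 counts each, and the 29 entries together took 0.0778% to 0.136% of them. ATF4 stood at 91.1 to 179 CPM (the gene's counts relative to the TMM-scaled library total) in the 8 shATF4 libraries, against 270 to 388 CPM in the 8 shSc libraries. Of 8 markers of colorectal epithelium, EPCAM (409 to 499 raw CPM), KRT8 (4040 to 6730), KRT18 (1500 to 2220), KRT19 (867 to 1450), CDH1 (167 to 437) and VIL1 (201 to 480) were plentiful in every library. The intestinal markers CDX2 (9.88 to 40.5 raw CPM) and CDH17 (0.904 to 9.08) were low. The blood marker PTPRC was at or under 0.134 raw CPM, and the fibroblast marker COL1A1 was at 6.61 to 22.4. A pair of libraries stood apart. RNA of the signal recognition particle made up 0.0713% of the counts in shATF4 24 h replicate 3 and 0.0224% and 0.0241% in its companions. At a lower level it also differed in shSc untreated replicate 1 (0.0161%, against 0.00368% and 0.0031% in its companions), which was not counted among the pair. Mitochondrial messenger RNAs made up 1.42% in shSc untreated replicate 2 and 0.753% and 0.766% in its companions. Counts of called host RNAs that involve the shATF4 24 h group are given with and without its replicate 3.

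The sequences around the annotated start of 8 host genes are shown because the TOP tract lies there, and because these genes span the range of responses described below. Each run is 70 bases, read 5′ to 3′ on the gene's strand from RefSeq's promoter table (GRCh38.p14), with the annotated first base of the transcript as its 21st base. Capitals mark each C that is followed by at least 4 C or T, with that run.
SNHG5: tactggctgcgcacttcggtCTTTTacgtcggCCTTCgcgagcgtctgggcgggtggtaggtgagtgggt
SNHG4: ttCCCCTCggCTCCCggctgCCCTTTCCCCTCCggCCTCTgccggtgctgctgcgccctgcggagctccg
ZFAS1: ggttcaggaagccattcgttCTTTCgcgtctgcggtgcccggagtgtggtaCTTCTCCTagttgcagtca
SNHG12: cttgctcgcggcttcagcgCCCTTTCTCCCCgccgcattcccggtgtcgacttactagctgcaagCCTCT
SNHG19: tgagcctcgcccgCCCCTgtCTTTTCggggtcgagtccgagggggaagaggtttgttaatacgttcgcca
GAS5: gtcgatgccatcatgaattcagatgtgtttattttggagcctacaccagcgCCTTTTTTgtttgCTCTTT
SNHG1: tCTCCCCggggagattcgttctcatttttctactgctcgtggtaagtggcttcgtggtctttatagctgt
SNHG20: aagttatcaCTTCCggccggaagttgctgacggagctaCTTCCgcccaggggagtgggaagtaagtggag

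The windows are chr6:85678684-85678753 on the minus strand for SNHG5, chr5:139274081-139274150 on the plus strand for SNHG4, chr20:49278622-49278691 on the plus strand for ZFAS1 and chr1:28581824-28581893 on the minus strand for SNHG12. Those of SNHG19 (chr16:2155309-2155378, minus strand), GAS5 (chr1:173868996-173869065, minus strand), SNHG1 (chr11:62855836-62855905, minus strand) and SNHG20 (chr17:77088623-77088692, plus strand) follow. RefSeq's table matched 19 of the 23 host genes. In 5 of the 19 (26.3%), SNHG5, SNHG4, ZFAS1, SNHG12 and SNHG19, the annotated first base was a C followed by at least 4 C or T, against 4.04% of 27305 promoters of all genes and 12 of 27 protein-coding snoRNA hosts. In SNHG12 the run of C and T also holds the base before the annotated start. Within 10 bases of the start such a C was found in 12 of the 19 (63.2%) and in 31.3% of all promoters. In GAS5 the whole window lies upstream of the gene's bounds in the deposited table, the tract CCTTTTTT downstream of the annotated start included. The start of GAS5 by those bounds was not examined. The E-box CACGTG was found in 1 of the 19 promoters of 300 bases (SNHG7) and in 7.43% of all. The motif TGATGNAA, searched on both strands, was found in 0 of the 19 and in 3.67% of all. These are matches of letters and show no binding. The 5 genes with a tract at the annotated start had a median log2 change at 24 h of -0.79 in shATF4 and -0.96 in shSc cells. The 14 without one at that base, GAS5 among them, had -0.51 in shATF4 and -0.68 in shSc cells. At 48 h the medians with a tract were -0.63 in shATF4 and -0.78 in shSc cells, and without one -0.56 in shATF4 and -0.4 in shSc cells, all values given as a description with no test.

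By the snoRNAs that the annotation places inside them, 7 of the 23 were hosts of box C/D snoRNAs (SNHG1, SNHG5, SNHG6, SNHG16, SNHG19, SNHG26 and ZFAS1). A further 10 were hosts of box H/ACA snoRNAs (SNHG3, SNHG4, SNHG7, SNHG8, SNHG9, SNHG11, SNHG15, SNHG17, DANCR and EPB41L4A-AS1), 3 of scaRNAs (SNHG10, SNHG20 and SNHG21) and 2 of both classes of snoRNA (SNHG12 and SNHG25). GAS5, a known host of box C/D snoRNAs, had none named in that annotation. The libraries were made from polyadenylated RNA and say little of the snoRNAs themselves: of 138 snoRNA and scaRNA genes listed inside the 29 entries, 120 had no count in any library. RF00570, without a count, lies inside both SNHG28 entries and is counted under each. SNORA71C in SNHG17 had 438 counts over the 16 libraries, and SNORD104 had 357, more than the 110 of its host SNHG25.

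The host RNAs differed widely in level in untreated cells. On the authors' FPKM scale, which is per length, SNHG5 had 72.8 ± 6 in untreated shSc cells (SD, n = 3, as for the other levels of this paragraph), DANCR 70 ± 2.38 and SNHG6 62 ± 4.21. GAS5 (38.2 ± 4.19), ZFAS1 (34.1 ± 3.48) and SNHG1 (32.4 ± 2.68) came next. At the low end SNHG20 had 1.38 ± 0.189 FPKM, SNHG9 0.548 ± 0.364 and SNHG26 0.217 ± 0.143. In this order the ranges of neighbours overlapped in 11 of 22 pairs, among them SNHG5 with DANCR, GAS5 with ZFAS1 and ZFAS1 with SNHG1. SNHG21 (6 to 31 counts a library), SNHG9 (1 to 17), SNHG26 (2 to 14) and SNHG25 (0 to 13) passed the filter on few reads. Of the 6 entries that did not pass it, SNHG14, the long host of the imprinted SNORD115 and SNORD116 clusters, had 36 counts in all libraries together, SNHG22 had 13, and 1 of the SNHG28 entries had 11. The other SNHG28 entry, SNHG27 and SNHG18 had 0 counts, which allows up to 3 over the series.

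Most host RNAs were lower in 5-FU, in both lines and at both times. In shATF4 cells at 24 h 14 of the 23 were called (an adjusted p under 0.05 by edgeR's quasi-likelihood fit, adjusted over 17309 genes after Benjamini and Hochberg), each of them lower. Of all genes tested 44.4% were called there, 21.2% lower. In shSc cells at 24 h 19 of the 23 were called, each of them lower, where 44% of all genes were called and 22.2% were lower. At 48 h 13 were lower and 1 higher in shATF4 cells (58.3% of all genes called, 28.7% lower and 29.6% higher), and 15 were lower and 2 higher in shSc cells (60.7% called, 30% lower and 30.6% higher). The median log2 change of the 23 at 24 h was -0.49 in shATF4 cells and -0.81 in shSc cells, and at 48 h it was -0.56 in shATF4 cells and -0.69 in shSc cells. Without shATF4 24 h replicate 3, 18 of the 23 were lower at 24 h in shATF4 cells (43.7% of all genes called), and the median was -0.71. SNHG6 (-0.35), SNHG16 (-0.48), SNHG17 (-0.24) and SNHG19 (-1.03) were then called as well. The 14 called with all libraries then ran from -0.4 for SNHG20 to -1.76 for SNHG4, each further below 0 than before. Over all genes tested with all libraries these medians were 0.03 in shATF4 and -0.01 in shSc cells at 24 h, and 0.03 in both lines at 48 h. The split of all called genes moved with the scaling: at 48 h 61.2% of them were higher in shATF4 and 61.4% in shSc cells under upper-quartile scaling, against 50.7% in shATF4 and 50.5% in shSc cells under TMM, and at 24 h in shSc cells 60.1% against 49.5%. The counts of called host genes changed by at most 1 under that scaling in these 4 responses. Counting groups that do not overlap, all 5-FU libraries lay below all untreated ones for 14 of the 23 at 24 h in shATF4 cells (24.3% of all genes) and 19 in shSc cells (27.1%). At 48 h they did for 17 in shATF4 cells (35.4% of all genes) and 15 in shSc cells (35.7%). All lay above for 0 and 1 of the 23 at 24 h, in shATF4 and shSc cells (25.8% of all genes in each), and at 48 h for 2 in shATF4 (37.6%) and 3 in shSc cells (37.5%).

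**Figure D1:**
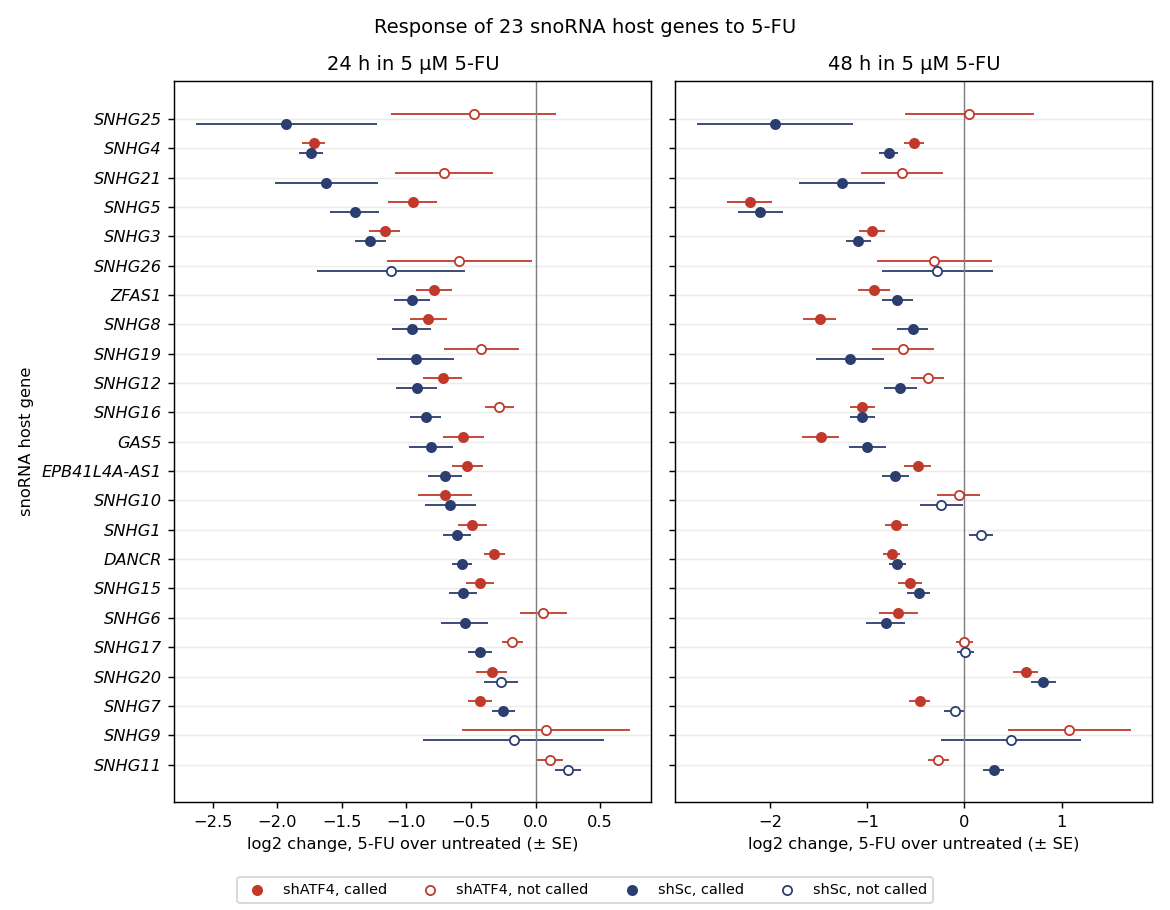
The x axes give the log2 change of 23 snoRNA host genes in 5-FU over untreated cells, with bars of 1 SE, at 24 h (left) and 48 h (right); filled points are called at an adjusted p under 0.05, red for shATF4 and blue for shSc. Most points lie left of 0, SNHG4 reaches -1.72 in shATF4 and -1.74 in shSc cells at 24 h, SNHG5 reaches -2.21 and -2.1 at 48 h, and SNHG20 stands at 0.63 and 0.81 at 48 h.

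Markers of other cell types moved at low levels in the same comparisons. The summed raw CPM of PTPRC (blood), COL1A1 (fibroblasts), PECAM1 (endothelium) and DES (muscle) was 9.05 to 10.9 in untreated shATF4 cells, 20 to 28.6 at 24 h and 20.9 to 25.1 at 48 h. In shSc cells it was 10.4 to 13.4 untreated, 29 to 32.9 at 24 h and 28.6 to 31.1 at 48 h. Of these 4 markers PTPRC did not pass the filter, and the other 3 rose in each response except at 48 h in shATF4 cells, where 2 rose. Of the 8 epithelial markers 3 fell and 1 rose at 24 h in shATF4 cells, and 4 fell and 2 rose in shSc cells. At 48 h 5 fell and 3 rose in each line. The shares of all genes called in these responses are given above. The part of either set of markers in the fall of the host RNAs was not tested.

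Among the box C/D hosts, SNHG5 (chr6:85660950-85678748, minus strand, GRCh38), host of SNORD50B, had the largest fall of the 23 at 48 h in both lines. It had 247, 241 and 243 CPM in untreated shATF4 cells, 79.9, 102 and 196 CPM at 24 h and 56.9 and 48.5 CPM at 48 h. The shSc cells had 211, 189 and 223 CPM untreated, 72, 85.2 and 79.3 CPM at 24 h and 45.8 and 50.9 CPM at 48 h. Every 5-FU library lay below every untreated library of its line, and in shATF4 cells at 24 h replicate 3 stood well above replicates 1 and 2. The log2 change at 48 h was -2.21 ± 0.23 (SE, 2 against 3 libraries, adjusted p = 7.24e-08) in shATF4 cells and -2.1 ± 0.23 (adjusted p = 1.28e-07) in shSc cells. At 24 h it was -0.95 ± 0.19 in shATF4 cells (3 against 3, adjusted p = 0.000392), or -1.42 without replicate 3, and -1.4 ± 0.19 in shSc cells (adjusted p = 6.7e-06). Each SE of a log2 change in this report comes from the quasi-likelihood fit over all 16 libraries. It is not the spread of the compared libraries alone.

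GAS5 (chr1:173863900-173868882, minus strand), whose exonic RNA is known as a decoy for the glucocorticoid receptor, had 185, 189 and 178 CPM in untreated shATF4 cells, 85.8, 105 and 184 CPM at 24 h and 68.6 and 63.6 CPM at 48 h. Its levels in shSc cells were 144, 124 and 155 CPM untreated, 80.6, 77.7 and 83.7 CPM at 24 h and 72.2 and 68.3 CPM at 48 h. At 24 h shATF4 replicate 3 lay within the untreated range, and the other 5-FU libraries lay below the untreated ones of their line. At 48 h GAS5 fell by 1.48 ± 0.19 (log2) in shATF4 cells (adjusted p = 1.51e-06) and stood at -1 ± 0.19 in shSc cells (adjusted p = 0.000128). At 24 h the log2 change was -0.56 ± 0.16 in shATF4 cells (adjusted p = 0.00933) and -0.81 ± 0.17 in shSc cells (adjusted p = 0.000551). Without shATF4 24 h replicate 3 the first of these was -0.95 (adjusted p = 5.79e-09), and without replicate 2 it was -0.45 and no longer called (adjusted p = 0.056).

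Of the other box C/D hosts, SNHG16, host of the SNORD1 family, had 31.3 and 27 CPM at 48 h in shATF4 cells, against 62.9, 59.3 and 58.8 CPM untreated. The shSc libraries had 28.9 and 28.5 CPM at 48 h, against 57.1, 57.6 and 64 CPM untreated. The groups did not overlap, and the log2 change was -1.05 ± 0.13 in each line (adjusted p = 7.99e-07 in shATF4 and 7.15e-07 in shSc cells). AC015802.6 on the other strand shares 30.6% of the exon bases of SNHG16 and had 34 counts in all libraries. ZFAS1, host of the SNORD12 family and named as the antisense neighbour of ZNFX1, fell at 48 h by 0.93 ± 0.16 on the log2 scale in shATF4 cells (adjusted p = 3.47e-05) and by 0.69 ± 0.16 in shSc cells (adjusted p = 0.000737). Its exons share 11.1% of their bases with ZNFX1 on the other strand, which had log2 changes of 0.28 in shATF4 and 0.43 in shSc cells at 48 h. SNHG19, host of SNORD60, was called lower in shSc cells (-0.93 ± 0.3 at 24 h, adjusted p = 0.0167), a call lost without shSc untreated replicate 1 (0.0538) or 3 (0.086) or 24 h replicate 1 (0.0527). SNHG26, with at most 14 counts in a library, was called in none of the 4 responses by edgeR, with log2 changes from -1.12 to -0.28.

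SNHG6, host of SNORD87, was not called at 24 h in shATF4 cells. It had 61.4, 76.8 and 136 CPM there, against 90.1, 83.3 and 90.3 CPM untreated, and in shSc cells 52.8, 55.9 and 52 CPM, against 84.8, 77 and 74 CPM untreated. Replicate 3 of the shATF4 24 h group lay above every untreated library and the other replicates of that group below them. The log2 change was 0.06 ± 0.18 in shATF4 cells (adjusted p = 0.804), and -0.35 (adjusted p = 0.00593) without replicate 3. In shSc cells it was -0.55 ± 0.18 (adjusted p = 0.0162), lost without shSc untreated replicate 1 (0.0613) and with DESeq2 (0.0568). At 48 h SNHG6 fell by 0.68 ± 0.2 (log2) in shATF4 cells (adjusted p = 0.0063, but 0.0858 without 48 h replicate 2) and by 0.81 ± 0.2 in shSc cells (adjusted p = 0.00182). Its exons share 29.3% of their bases with MCMDC2 on the other strand, which had 308 counts in all libraries.

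Among the box H/ACA hosts, SNHG4 (chr5:139274102-139284899, plus strand), host of the SNORA74 snoRNAs, had the fall at 24 h with the smallest adjusted p of the 23 in both lines. It had 15.3, 16.8 and 17.4 CPM at 24 h in shATF4 cells, against 52.4, 57.8 and 52.7 CPM untreated. Its shSc libraries had 15.9, 15.7 and 17.2 CPM at 24 h, against 57.7, 48.4 and 56.6 CPM untreated. The treated libraries, shATF4 replicate 3 included, lay far below the untreated ones. The fall was 3.29-fold in shATF4 cells (log2 change -1.72 ± 0.09, adjusted p = 2.05e-11) and 3.34-fold in shSc cells (-1.74 ± 0.09, adjusted p = 1.43e-11). An entry of MATR3 on the same strand, with 77 counts in all libraries, shares 14% of the exon bases of SNHG4. SIL1 on the other strand, with 4927 counts, shares 2.6%. At 24 h SIL1 had log2 changes of 0.06 in shATF4 and -0.3 in shSc cells. SNHG3, host of SNORA73A and SNORA73B, had 21.8, 26.8 and 32.8 CPM at 24 h in shATF4 cells, against 58.2, 63.1 and 61.8 CPM untreated, and 24, 19.5 and 23.4 CPM in shSc cells, against 50.5, 53.3 and 59.5 CPM untreated. It too fell without overlap, by 1.17 ± 0.12 on the log2 scale in shATF4 cells (adjusted p = 7.59e-08) and by 1.28 ± 0.12 in shSc cells (adjusted p = 2.22e-08). Its exons share 5.9% of their bases with RCC1 on the same strand, which had log2 changes of -0.53 in shATF4 and -0.93 in shSc cells at 24 h.

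DANCR (chr4:52712404-52720351, plus strand), host of SNORA26 and known to hold back differentiation of progenitor cells, had 109 and 111 CPM at 48 h in shATF4 cells, against 186, 185 and 183 CPM untreated. In shSc cells it had 104 and 96.8 CPM at 48 h, against 160, 168 and 159 CPM untreated. Both lines showed a fall without overlap, with a log2 change of -0.75 ± 0.09 in shATF4 cells (adjusted p = 7.11e-07) and -0.69 ± 0.09 in shSc cells (adjusted p = 2e-06). SNHG15, host of SNORA9, and EPB41L4A-AS1, host of SNORA13, were lower in all 4 responses, with log2 changes from -0.56 to -0.43 for SNHG15 and from -0.71 to -0.48 for EPB41L4A-AS1. The exons of EPB41L4A-AS1 share 49.6% of their bases with EPB41L4A on the other strand, but that gene had 71 counts in all libraries. SNHG17, host of the SNORA71 snoRNAs, was called lower at 24 h in shSc cells (-0.43 ± 0.09, adjusted p = 0.000408) and stood at 0 ± 0.09 in shATF4 and 0.01 ± 0.09 in shSc cells at 48 h. SNHG7, host of SNORA17 snoRNAs, was lower at 48 h in shATF4 cells (-0.46 ± 0.11, adjusted p = 0.00093) and was not called at 48 h in shSc cells (-0.1 ± 0.11, adjusted p = 0.448). FAM69B on the other strand, with 2098 counts in all libraries, shares 25.2% of the exon bases of SNHG7. At 48 h FAM69B had log2 changes of -0.48 in shATF4 and -0.12 in shSc cells.

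SNHG11, host of SNORA60, was called higher at 48 h in shSc cells, as was SNHG20, described below. SNHG11 had 21.2 and 18.1 CPM at 48 h in shSc cells, against 15.3, 16.5 and 16.1 CPM untreated, a log2 change of 0.3 ± 0.11 (adjusted p = 0.0292). That call was lost without shSc untreated replicate 1 (0.0823), without shSc 48 h replicate 1 (0.374) and with no filter on low counts (0.135). In shATF4 cells at 48 h it had 15.3 and 17.6 CPM, against 18.4, 21.4 and 19.7 CPM untreated (-0.27 ± 0.11, adjusted p = 0.0506). SNHG9, host of SNORA78, had log2 changes from -0.17 to 1.08 in the 4 responses and was called in none of them by edgeR.

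Of the scaRNA hosts, SNHG20 (chr17:77086716-77099902, plus strand), host of SCARNA16, was the one host RNA called higher in both lines at 48 h. It had 17.7 and 17.9 CPM at 48 h in shATF4 cells, against 11.1, 12.1 and 11.2 CPM untreated. The shSc libraries had 14.8 and 15 CPM at 48 h, against 7.32, 9.57 and 8.64 CPM untreated. The 48 h libraries lay above the untreated ones in both lines. SNHG20 rose by 0.63 ± 0.13 on the log2 scale in shATF4 cells (adjusted p = 0.000266) and by 0.81 ± 0.13 in shSc cells (adjusted p = 2.53e-05). Its exons share 7.6% of their bases with SEC14L1 on the same strand, which had log2 changes of 0.39 in shATF4 and 0.57 in shSc cells at 48 h. Over all libraries SNHG20 had 2819 counts and SEC14L1 had 31543. How many reads the genes share was not tested. SNHG10, host of SCARNA13, was lower at 24 h (-0.7 ± 0.21 in shATF4 cells, adjusted p = 0.0088, and -0.66 ± 0.2 in shSc cells, adjusted p = 0.0109). At 48 h it was not called (-0.06 ± 0.22 in shATF4 and -0.24 ± 0.22 in shSc cells). The 24 h call in shSc cells was lost without shSc untreated replicate 3 (0.09) or 24 h replicate 1 (0.0554), and 20.1% of its exon bases are shared with GLRX5 on the other strand.

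SNHG12, host of SNORD99 and several SNORA snoRNAs, fell at 24 h by 0.72 ± 0.15 on the log2 scale in shATF4 cells (adjusted p = 0.000692) and by 0.92 ± 0.16 in shSc cells (adjusted p = 7.07e-05). SNHG25 was called lower in shSc cells at 24 h (-1.93 ± 0.7, adjusted p = 0.0307), where its libraries had 0.23, 0 and 0.296 CPM, against 0.805, 0.634 and 0.67 CPM untreated. Its calls in shSc cells were lost in several leave-one-out fits (adjusted p up to 0.116 at 24 h, without 24 h replicate 2, and 0.144 at 48 h, without 48 h replicate 2). SNHG21 was also called lower in shSc cells (-1.62 ± 0.4, adjusted p = 0.00249 at 24 h), and 72.9% of its exon bases are shared with AC105339.2 on the same strand.

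**Figure D2:**
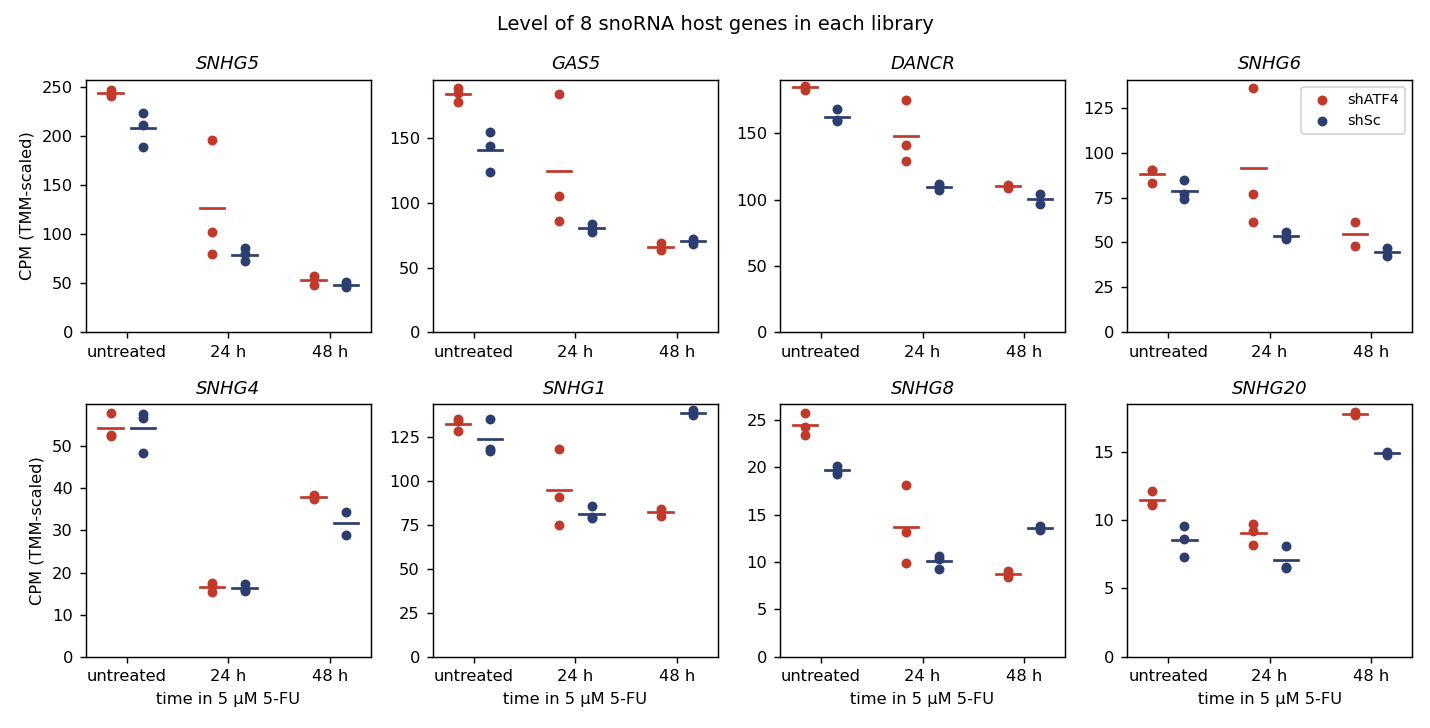
Each point is the TMM-scaled CPM of 1 library for 8 snoRNA host genes, against time in 5 µM 5-FU, with red points for shATF4 (left of each pair) and blue for shSc, and lines at group means (n = 3, or 2 at 48 h). SNHG5, GAS5 and SNHG6 show 1 shATF4 library at 24 h far above its group (196, 184 and 136 CPM), SNHG4 returns part of the way at 48 h, and SNHG1 is at 137 and 140 CPM in shSc cells at 48 h.

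Other gene classes give the setting of these counts. Genes named from a list in this and the next paragraphs are among those with the smallest adjusted p in it, and need not be typical of it. Of 2352 other long non-coding RNA genes that passed the filter, 11.1% were called lower at 24 h in shATF4 cells and 6.21% in shSc cells. At 48 h 7.61% were lower in shATF4 and 5.4% in shSc cells. Their median log2 change was 0.12 in shATF4 and 0.15 in shSc cells at 24 h, and 0.43 in shATF4 and 0.5 in shSc cells at 48 h. Of 34 listed protein-coding genes that also carry snoRNAs in their introns, 28 fell at 24 h in shATF4 cells (31 without replicate 3) and 33 in shSc cells, and 32 fell at 48 h in each line. The median log2 change of these coding hosts was -0.39 in shATF4 and -0.82 in shSc cells at 24 h, and -1.15 in shATF4 and -1.31 in shSc cells at 48 h. The ribosomal protein gene RPL3 stood at -1.22 ± 0.05 at 24 h and -1.55 ± 0.06 at 48 h in shATF4 cells, and at -1.62 ± 0.05 and -2.2 ± 0.06 in shSc cells. At 48 h against 24 h 28 of the 34 coding hosts were lower in shATF4 cells, where 24.5% of all genes were lower. In shSc cells 26 were lower and 1 higher, where 19.5% of all genes were lower and 18.8% higher. The shATF4 count was not repeated without 24 h replicate 3.

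**Figure D3:**
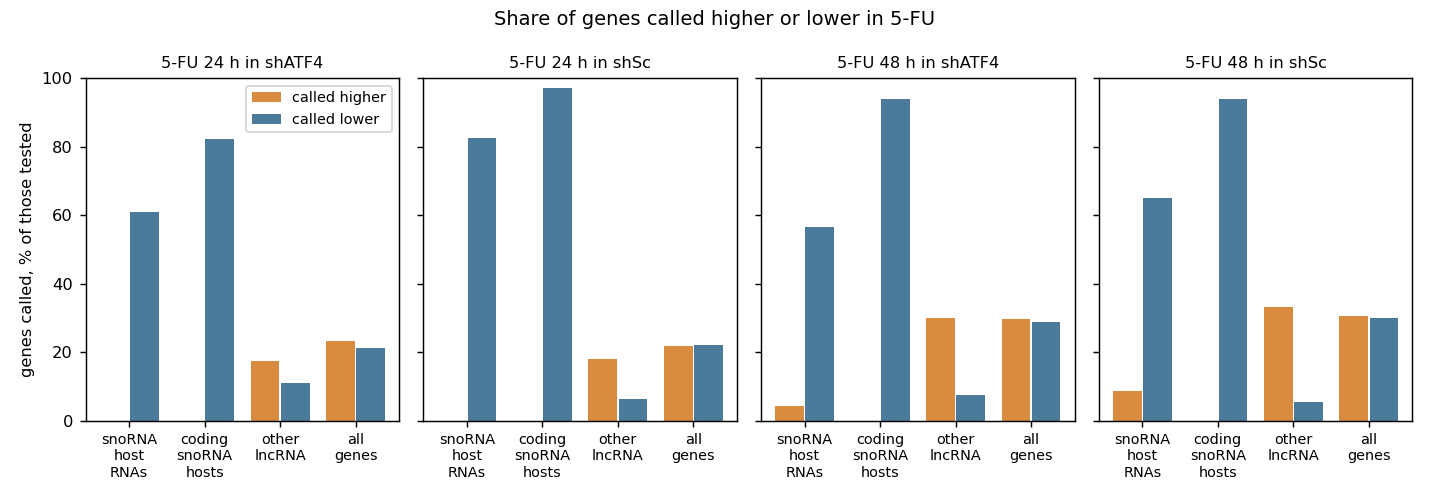
Bars give the percentage of genes called higher (orange) or lower (blue) in 5-FU over untreated cells, for 23 snoRNA host RNAs, 34 protein-coding snoRNA hosts, 2352 other long non-coding RNA genes and 17309 genes in all. The lower bar of the host RNAs stands at 60.9% in shATF4 and 82.6% in shSc cells at 24 h and at 56.5% in shATF4 and 65.2% in shSc cells at 48 h, and that of the other long non-coding RNAs between 5.4% and 11.1%.

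Among the proteins that build snoRNAs into particles, those called were lower in most cases. For the counts of this and the next paragraph, the share of all genes called lower was 21.2% at 24 h and 28.7% at 48 h in shATF4 cells, and 22.2% at 24 h and 30% at 48 h in shSc cells. The share called higher was 23.2% at 24 h and 29.6% at 48 h in shATF4 cells, and 21.8% at 24 h and 30.6% at 48 h in shSc cells. Of the 4 core proteins of box C/D particles, 2 fell at 24 h in shATF4 cells and 3 in shSc cells, and 3 fell at 48 h in each line. NOP56 stood at -0.67 ± 0.08 in shATF4 and -0.96 ± 0.08 in shSc cells at 24 h, and the methyltransferase FBL at -1 ± 0.1 in shATF4 and -1.2 ± 0.1 in shSc cells at 48 h. Of the 4 core proteins of H/ACA particles, 1 fell at 24 h in shATF4 cells (median 0.03) and 3 in shSc cells (median -0.55), and all 4 fell at 48 h in each line, with the pseudouridine synthase DKC1 at -0.83 ± 0.09 in shATF4 and -0.91 ± 0.09 in shSc cells. Of 9 assembly factors 4 fell and 1 rose at 24 h in shATF4 cells, 6 fell in shSc cells, and at 48 h 5 fell and 1 rose in shATF4 and 7 fell in shSc cells. Without shATF4 24 h replicate 3 the counts lower at 24 h in shATF4 cells were 3 of the C/D core, 2 of the H/ACA core (median -0.28) and 4 of the assembly factors. NAF1, an assembly factor of H/ACA particles, stood at -0.83 ± 0.12 in shATF4 and -1.09 ± 0.12 in shSc cells at 48 h.

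Genes of RNA decay and of TOP translation changed in both directions or fell. No list had a larger share called higher than all genes had. The decapping genes at 24 h in shATF4 cells were near the shares of all genes in both directions (22.2% each way). Of 20 factors of nonsense-mediated decay, 6 fell and 2 rose in shATF4 cells at 24 h, and 7 fell and 1 rose in shSc cells. The factor UPF3B rose at 24 h (0.73 ± 0.08 in shATF4 and 0.7 ± 0.08 in shSc cells) and the termination factor GSPT1 fell (-0.63 ± 0.06 in shATF4 and -0.49 ± 0.06 in shSc cells). At 48 h 16 fell in shATF4 cells, and 13 fell and 1 rose in shSc cells. Of 19 genes of the nuclear exosome and its cofactors, 7 fell at 24 h in shATF4 cells and 8 in shSc cells, and at 48 h 15 fell in shATF4 and 13 in shSc cells. ZFC3H1 stood at -0.92 ± 0.08 in shATF4 and -0.4 ± 0.08 in shSc cells at 24 h, against medians of these 19 genes of -0.1 in shATF4 and -0.21 in shSc cells. Of 9 decapping genes 2 rose and 2 fell at 24 h in shATF4 cells and 1 fell in shSc cells, while at 48 h 4 fell in shATF4 cells, and 4 fell and 1 rose in shSc cells. Of 6 regulators of TOP translation 4 fell in shATF4 cells at each time and 5 in shSc cells, and LARP1, which binds TOP tracts, stood at -1.08 ± 0.07 in shATF4 and -1.04 ± 0.07 in shSc cells at 48 h. The median of these 6 regulators at 48 h was -0.5 in shATF4 and -0.61 in shSc cells. All these values are log2 changes, with ± SE for single genes.

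At 48 h some host RNAs were higher and some lower than at 24 h. With all libraries the share called was below that of all genes in both lines. In shATF4 cells 3 of the 23 were higher and 7 lower at 48 h than at 24 h (48.2% of all genes called, 23.7% higher and 24.5% lower), and in shSc cells 5 were higher and 1 lower (38.3% called, 18.8% higher and 19.5% lower). Without shATF4 24 h replicate 3 the count in shATF4 cells was 6 higher and 7 lower. These 13 of the 23 were then a larger share than that of all genes called (47.3%). The median of the 23 was 0.18 in place of -0.03. Groups did not overlap for 5 higher and 7 lower in shATF4 cells (32% and 30% of all genes) and for 9 higher and 6 lower in shSc cells (33.2% and 32.3%). These values share their 24 h libraries with the 24 h responses.

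SNHG4 had 38.4 and 37.5 CPM at 48 h in shATF4 cells, against 15.3, 16.8 and 17.4 CPM at 24 h, and in shSc cells 29 and 34.3 CPM at 48 h, against 15.9, 15.7 and 17.2 CPM at 24 h. In both lines every 48 h library lay above every 24 h library and below every untreated one. At 48 h SNHG4 rose relative to 24 h by 1.2 ± 0.1 on the log2 scale in shATF4 cells (adjusted p = 1.21e-08) and by 0.96 ± 0.1 in shSc cells (adjusted p = 4.22e-07). SNHG20 rose as well, by 0.98 ± 0.13 in shATF4 cells (adjusted p = 3.71e-06) and 1.08 ± 0.13 in shSc cells (adjusted p = 2.72e-06). Its fall at 24 h in shATF4 cells (-0.34 ± 0.12, adjusted p = 0.0294) was lost in 6 of 21 alternatives. SNHG5 was lower at 48 h than at 24 h, by 1.26 ± 0.23 in shATF4 cells (adjusted p = 0.000113) and by 0.7 ± 0.23 in shSc cells (adjusted p = 0.0179). In shATF4 cells its change was -0.79 (adjusted p = 1.67e-06) without 24 h replicate 3. The shSc call was lost without 48 h replicate 1 (0.105) or 2 (0.0526) and with DESeq2 (0.0561).

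GAS5 (-0.92 ± 0.19), SNHG16 (-0.77 ± 0.13), SNHG6 (-0.75 ± 0.2), SNHG8 (-0.66 ± 0.17) and DANCR (-0.44 ± 0.09) were lower at 48 h than at 24 h in shATF4 cells. Without 24 h replicate 3 these log2 changes were -0.53, -0.57, -0.34, -0.4 and -0.3, each still called. The call of SNHG6 was lost without 48 h replicate 2 (-0.58, adjusted p = 0.0778). SNHG11 was lower too (-0.38 ± 0.11, adjusted p = 0.00909, but 0.134 without 48 h replicate 1). SNHG10 was higher (0.64 ± 0.22, adjusted p = 0.0225), a call lost without 24 h replicate 1 (0.0734) or 2 (0.0825) or 48 h replicate 1 (0.271). In shSc cells SNHG17 was higher at 48 h (0.44 ± 0.09, adjusted p = 0.000956), with 45.4 and 42.6 CPM, against 32.8, 34.1 and 30.4 CPM at 24 h. SNHG1 and SNHG8 were higher at 48 h in shSc cells, as given below.

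**Figure D4:**
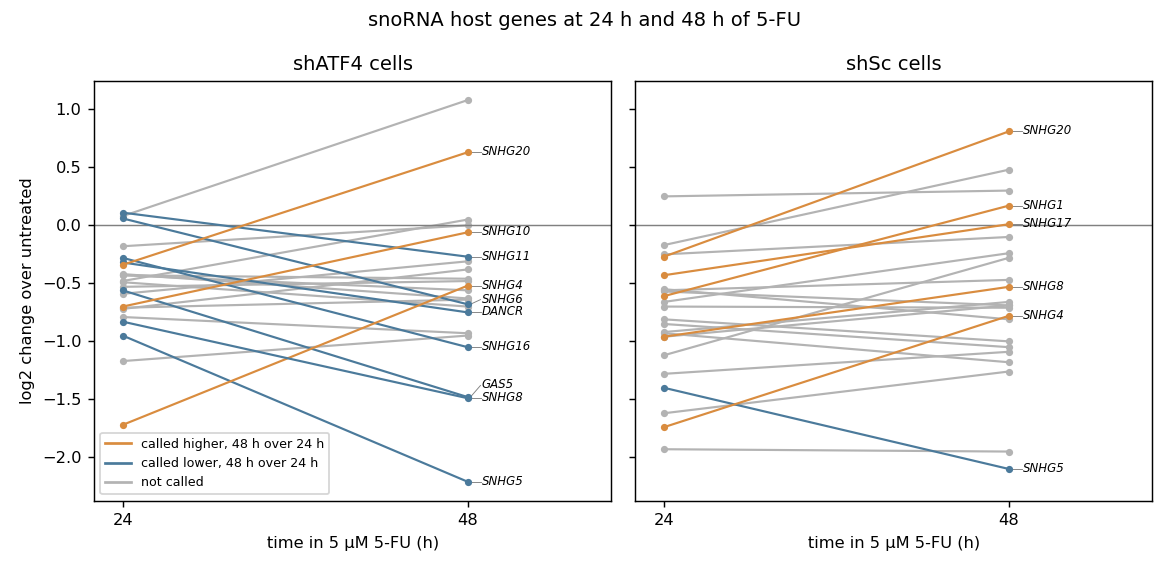
Lines join the log2 change over untreated cells of each of the 23 snoRNA host genes at 24 h and at 48 h of 5 µM 5-FU (x axis, hours), in shATF4 cells (left) and shSc cells (right); orange lines are called higher at 48 h than at 24 h, blue lines lower. SNHG4 and SNHG20 are orange in both panels, SNHG5 is blue in both, and SNHG8 is blue in shATF4 and orange in shSc cells.

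The comparison of shATF4 with shSc cells asks what the lines differ in. In untreated cells 0 of the 23 were called by edgeR and 0 by DESeq2 (2.92% of all genes were called by edgeR, 1.08% higher and 1.84% lower). At an unadjusted p under 0.05 there were 6 of the 23, against 2442 of the 17309 genes tested. The 6 were DANCR, GAS5, EPB41L4A-AS1, SNHG8, SNHG11 and SNHG20, each with a log2 change above 0 (0.18 to 0.43). All shATF4 libraries lay above all shSc libraries for 7 of the 23 (8.48% of all genes) and below them for 0 (10.8%). The median of the 23 was 0.16. GAS5 (0.39) was called without shATF4 24 h replicate 3 (adjusted p = 0.00249), a library of neither group compared here.

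At 24 h of 5-FU 9 of the 23 were called, each of them higher in shATF4 cells (20.4% of all genes called, 10.5% higher and 9.89% lower), with a median of 0.41. The groups did not overlap for 7, each higher in shATF4 cells (17.3% of all genes), and for 0 lower (17.5%). The count of 9 called turned on the libraries of the shATF4 24 h group. Without replicate 3 it was 4 (DANCR, SNHG6, SNHG16 and SNHG17, where 18.6% of all genes were called) and the median was 0.19. Without replicate 1 it was 15, where 22.5% of all genes were called. DANCR had 129, 141 and 175 CPM in shATF4 cells, against 112, 107 and 110 CPM in shSc cells. Each shATF4 library lay above each shSc library, and the log2 change was 0.44 ± 0.08 (adjusted p = 0.00097), or 0.3 without replicate 3 (adjusted p = 0.00154). SNHG16 had 41.7, 45.1 and 62.2 CPM in shATF4 cells, against 35.7, 30 and 33.7 CPM in shSc cells (0.59 ± 0.12, adjusted p = 0.00135, and 0.39 without replicate 3, adjusted p = 0.00417). The groups did not overlap there either. SNHG17 stood at 0.41 ± 0.09 (adjusted p = 0.00225) and at 0.35 without replicate 3, and SNHG6 at 0.78 ± 0.18 (adjusted p = 0.00435) and at 0.37.

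The other 5 calls at 24 h did not hold without that library. SNHG5 had a log2 change of 0.68 ± 0.19 (adjusted p = 0.0177), against 0.2 without replicate 3 (0.142). GAS5 had 0.64 ± 0.17 (adjusted p = 0.011), against 0.24 (0.0536), and EPB41L4A-AS1 0.5 ± 0.13 (adjusted p = 0.00913), against 0.32 (0.0623). SNHG8 (0.44 ± 0.15, adjusted p = 0.0396) and ZFAS1 (0.41 ± 0.14, adjusted p = 0.0457) stood at 0.19 (0.326) and 0.18 (0.31). The calls of SNHG5 (0.0825), EPB41L4A-AS1 (0.0679) and SNHG8 (0.155) were also lost without shSc 24 h replicate 1, and that of ZFAS1 (0.225) without shSc 24 h replicate 2. Of the 34 coding hosts 24 were higher in shATF4 cells at this time (median 0.36), and 18 without replicate 3 (median 0.21).

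Replicate 3 of the shATF4 24 h group was the highest of its 3 libraries for 21 of the 23 host genes, against 40.4% of all genes tested and 94.9% of 78 ribosomal protein genes. Replicate 1 was the lowest for 21 of the 23 (33.8% of all genes tested). The median log2 ratio of replicate 3 to the mean of replicates 1 and 2 (CPM with 0.5 added) was 0.47 for the host genes, 0.01 for all genes tested, 0.05 for other long non-coding RNAs and 0.52 for ribosomal protein genes. SNHG19, SNHG5, SNHG6 and GAS5 had the largest ratios among the 23, of 1.23, 1.11, 0.98 and 0.94 on the log2 scale, and SNHG4, SNHG11 and SNHG26 were near 0 or below (0.11, 0.01 and -0.13). The share of ribosomal protein genes was 5.97% in that library, while replicates 1 and 2 had 3.97% and 4.52%, and its signal recognition particle RNA was high as given above. The part of these differences in the host gene levels was not tested.

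**Figure D5:**
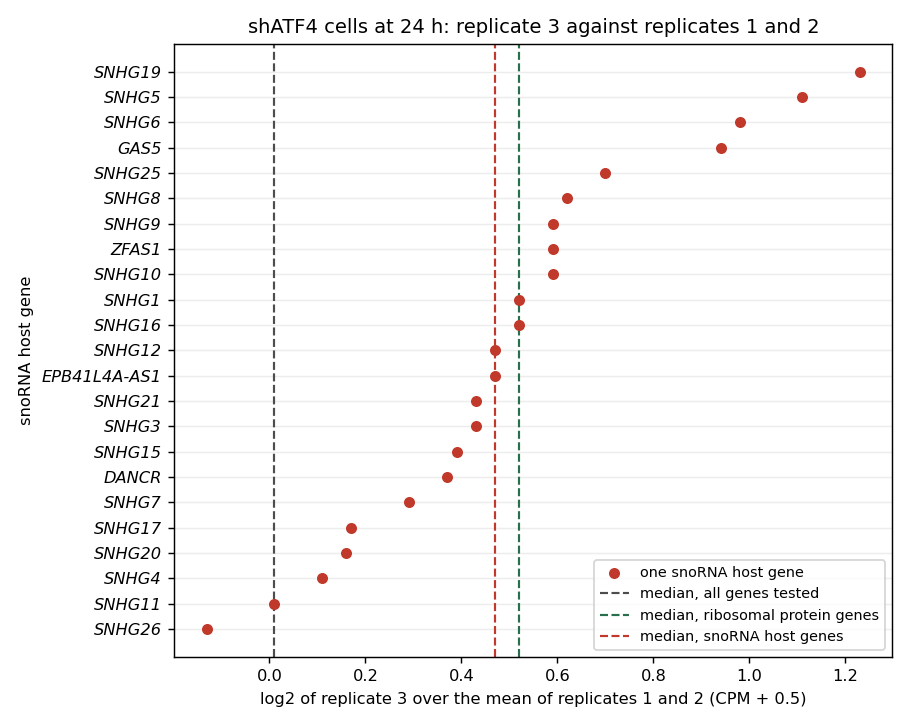
Points give, for each of 23 snoRNA host genes, the log2 ratio of its CPM in shATF4 24 h replicate 3 to the mean of replicates 1 and 2, and dashed lines give the medians of all genes tested (0.01), of the host genes (0.47) and of ribosomal protein genes (0.52). Points run from -0.13 for SNHG26 to 1.23 for SNHG19.

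At 48 h 3 of the 23 differed between the lines (9.45% of all genes called, 3.92% higher and 5.53% lower). Groups did not overlap for 11 higher (27.7% of all genes) and 4 lower (28.1%). SNHG1 (chr11:62851988-62855914, minus strand), host of a cluster of SNORD snoRNAs that includes SNORD22, SNORD25 and SNORD30, had 84 and 79.8 CPM in shATF4 cells, against 137 and 140 CPM in shSc cells. The groups did not overlap, and SNHG1 was 1.69-fold lower in shATF4 cells (log2 change -0.76 ± 0.13, 2 against 2 libraries, adjusted p = 0.0008). SNHG8 (chr4:118278709-118279823, plus strand), host of SNORA24, had 9.06 and 8.41 CPM in shATF4 cells, against 13.4 and 13.8 CPM in shSc cells (-0.64 ± 0.18, adjusted p = 0.03). EPB41L4A-AS1 had 19.7 and 19.6 CPM in shATF4 cells, against 12.3 and 14.2 CPM in shSc cells (0.57 ± 0.16, adjusted p = 0.0231). For both genes the groups did not overlap, but each of these calls was lost whichever of the 4 libraries was removed (adjusted p from 0.0973 to 0.174 for SNHG8 and from 0.059 to 0.207 for EPB41L4A-AS1).

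The difference between the lines in the response itself was tested as an interaction. At 24 h 0 of the 23 were called by edgeR and 1, SNHG16, by DESeq2 (3.9% of all genes called by DESeq2). Of all genes edgeR called 2.13%, 0.947% with a higher and 1.18% with a lower response in shATF4 cells. At an unadjusted p under 0.05 there were 3 of the 23 (DANCR, SNHG6 and SNHG16), against 3226 of the 17309 genes tested, a larger share. The median of the 23 was 0.2, or -0.03 without shATF4 24 h replicate 3. At 48 h SNHG1 and SNHG8 were called by edgeR, both with a lower response in shATF4 cells (2.74% of all genes called, 1.3% with a higher and 1.44% with a lower response). DESeq2 (4% of all genes called) and edgeR with a replicate block (3.87%) called SNHG11 as well, at -0.57 (adjusted p = 0.0431 and 0.0449). With no filter on low counts edgeR called GAS5 as well (-0.47, adjusted p = 0.0248, with 1.7% of all genes called). SNHG1 had 135, 128 and 134 CPM untreated in shATF4 cells, 74.7, 90.5 and 118 CPM at 24 h and 84 and 79.8 CPM at 48 h. The shSc cells had 118, 117 and 135 CPM untreated, 78.7, 79.4 and 85.3 CPM at 24 h and 137 and 140 CPM at 48 h. In shATF4 cells both 48 h libraries lay below every untreated one, and in shSc cells both lay just above the highest untreated one. The log2 change at 48 h was -0.7 ± 0.12 in shATF4 cells (adjusted p = 6.05e-05) and 0.17 ± 0.12 in shSc cells (adjusted p = 0.239, but 0.31 with an adjusted p of 0.029 under upper-quartile scaling). The difference in response was -0.86 ± 0.17 (adjusted p = 0.00794, but 0.0511 without shATF4 48 h replicate 2). At 48 h against 24 h SNHG1 stood at -0.21 ± 0.12 in shATF4 cells (adjusted p = 0.168) and at 0.77 ± 0.12 in shSc cells (adjusted p = 3.6e-05).

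SNHG8 had 23.4, 24.3 and 25.8 CPM untreated in shATF4 cells, 9.92, 13.2 and 18.1 CPM at 24 h and 9.06 and 8.41 CPM at 48 h. In shSc cells it had 19.3, 19.6 and 20.2 CPM untreated, 9.31, 10.3 and 10.7 CPM at 24 h and 13.4 and 13.8 CPM at 48 h. It was lower at 48 h in both lines, with log2 changes of -1.49 ± 0.17 in shATF4 cells (adjusted p = 1.68e-07) and -0.53 ± 0.16 in shSc cells (adjusted p = 0.00681). The difference in response was -0.95 ± 0.23 (adjusted p = 0.0262). It was lost without shSc untreated replicate 1 (0.0611), shSc 48 h replicate 1 (0.0915) or 2 (0.11), shATF4 untreated replicate 2 (0.0604) or 3 (0.0596), or shATF4 48 h replicate 1 (0.0679) or 2 (0.119). Its rise at 48 h relative to 24 h in shSc cells (0.43 ± 0.16, adjusted p = 0.0447) was lost in 12 of 21 alternatives, with adjusted p up to 0.188. Without shATF4 24 h replicate 3 the interaction at 48 h called GAS5 (-0.47, adjusted p = 0.0228) and SNHG11 (-0.56, adjusted p = 0.0385) as well. That made 4 host genes in all, each with a lower response in shATF4 cells. The share of all genes called rose too, from 2.74% to 5.74%.

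In the authors' deposited table, which gives log2 fold changes and adjusted p-values of an unstated test, the host genes at an adjusted p under 0.05 were 11 lower at 24 h and 14 lower and 1 higher at 48 h in shATF4 cells. The authors' deposited table has 18 lower at 24 h and 13 lower and 1 higher at 48 h in shSc cells. For shATF4 against shSc the authors' deposited table has 2 higher in untreated cells, 4 higher at 24 h, and 1 higher and 2 lower at 48 h. These counts are of the 26 host entries with an adjusted p there, or 25 for shATF4 against shSc at 48 h. The share of all genes called by the authors' test was not counted, so the counts are not set against it.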

How the data were processed

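RNA of 16 samples of SW620 cells was selected for poly(A) with oligo-dT beads and reverse transcribed from random hexamers, per the labels' protocols. The submitters' processing notes name featureCounts 1.5.0-p3 and the builds GRCh38 and hg38. For aligner, annotation release and strand setting: not given in the sources used here. The deposited tables hold, per the file headers, raw counts, FPKM, gene length, and the authors' log2 fold changes and p-values, including adjusted p-values. Samples were grouped by title, since the treatment tag of the 48 h libraries reads 24 h. Counts were fitted with edgeR 4.0.16 (R 4.3.3, limma 3.58.1; filterByExpr, TMM, quasi-likelihood, 6 group means, 10 residual degrees of freedom, no block), over 11 comparisons, with p-values adjusted over 17309 genes (Benjamini-Hochberg, called under 0.05). The 17309 genes held 99.9% of counts. CPM are TMM-scaled unless called raw. The common biological coefficient of variation was 0.0847, and library totals were 14571611 to 17824188. Replicates of a group differed by more than counting noise. Alternatives were upper-quartile scaling, no filter, a replicate block, DESeq2 1.42.0 and left-out libraries, 21 in all. The host genes and gene lists were chosen with earlier results of these data known. Every gene matching the naming rule was to be reported, with values in full for those the results turn on. RefSeq's promoter table supplied the sequences.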

Additional observations from a re-analysis of the deposited data

Results flagged for a closer look

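The response to 5-FU at 48 h differed between the lines for 2 host genes, by edgeR's interaction term. SNHG1 had a difference in log2 response (shATF4 minus shSc) of -0.86 ± 0.17 (adjusted p = 0.00794), with -0.7 in shATF4 and 0.17 in shSc cells. SNHG8 had a difference of -0.95 ± 0.23 (adjusted p = 0.0262), with -1.49 in shATF4 and -0.53 in shSc cells. Each rests on 2 libraries a line at 48 h, and both calls were lost when shATF4 48 h replicate 2 was left out (0.0511 for SNHG1 and 0.119 for SNHG8).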

How the results depend on the processing

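The counts of called host genes in the 4 responses to 5-FU stayed within 1.5 times of the main count under all 21 alternatives. Leaving out 1 library gave 12 to 18 at 24 h and 14 to 17 at 48 h in shATF4 cells, and 15 to 20 at 24 h and 14 to 17 at 48 h in shSc cells. At 48 h against 24 h it gave 8 to 13 in shATF4 and 4 to 7 in shSc cells. Calls kept under all 21 alternatives were 12 of 14 at 24 h and 13 of 14 at 48 h in shATF4 cells, and 14 of 19 at 24 h and 13 of 17 at 48 h in shSc cells.

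Between the lines the counts moved more, and the cause was not tested. In untreated cells the count was 0, but 1 with no filter, 3 with both libraries that stood apart left out, and 0 to 1 with any 1 library left out. At 24 h it was 9, but 5 with both left out and 4 to 15 with 1 left out. At 48 h it was 3, and 1 to 3 with 1 left out. For the interaction at 24 h it was 0, but 3 with no filter, 1 with DESeq2 and 0 to 2 with 1 left out, and at 48 h it was 2, but 4 with both left out and 0 to 4 with 1 left out. For the interaction at 48 h DESeq2 and the replicate block each added SNHG11, and the fit with no filter added GAS5. With both left out the share of all genes called moved as well, from 2.92% to 5.18% in untreated cells and from 20.4% to 22.2% at 24 h. For the interaction at 48 h it moved from 2.74% to 7%. Without shATF4 24 h replicate 3 the sign turned for SNHG6 at 24 h in shATF4 cells (-0.35, also with both left out) and for the median interaction at 24 h (-0.03). Without replicate 1 of that group these values were 0.26 and 0.3.

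Same-numbered libraries did not deviate together (r from -0.08 to 0.12 over 36 pairs, 1 over 0.1), so the numbers were not taken as pairs. With a replicate block the interaction at 24 h called 1 host gene (SNHG16), and no other count moved by more than 1.5 times.

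Upper-quartile scaling raised the median log2 change of all genes to 0.16 in shATF4 and 0.17 in shSc cells at 48 h, against 0.03 in each line. Of all called genes it put 60.2% higher at 48 h against 24 h in shSc cells, against 49.1%, and 30.7% higher in the interaction at 24 h, against 44.4%. Depth limits SNHG9, SNHG21, SNHG25 and SNHG26, which had at most 31 counts in a library.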
